A study of Mus musculus with 6 samples.

Results

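The pluripotency genes described here are 10 genes whose RNA marks mouse embryonic stem cells (ESCs) and the early epiblast: Pou5f1, Nanog, Klf4, Fgf4, Zfp42, Esrrb, Tdgf1, Utf1, Dppa4 and Lin28a. They were chosen by gene symbol, and all 10 were found among the 19938 genes with a probe set of 1 symbol. They were measured in cells sorted from ESC cultures that had been directed towards cerebral cortex. The ESCs carried GFP knocked in at the gene that encodes CTIP2 (Bcl11b) in a 129SVEV line, with the selection cassette retained, and no count of independent clones is given in the sources used here. All cells were grown on mouse embryonic fibroblast feeders before differentiation. All were then cultured as floating aggregates, first with an inhibitor of TGF-beta receptors and an inhibitor of WNT secretion. CTIP2:GFP+ cells and CTIP2:GFP- cells were each sorted on day 11, day 12 and day 13 and hybridised to 1 array per fraction and day. Each fraction has 3 arrays from 3 days, and no array was repeated within a day. The main test takes out the change from day to day that both fractions share. The spread behind its p-values is therefore how the difference between the fractions varied over the days.

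Pluripotency rests on a small network of transcription factors. OCT4, the product of Pou5f1, pairs with SOX2 at enhancers of many genes of the network, while NANOG, KLF4 and ESRRB keep ESCs in their undifferentiated state. FGF4, secreted by the ESCs themselves, drives them to leave that state, and the network shuts down as cells become neural. SOX2 and, for a time, LIN28A stay on in neural progenitors, so that neither marks undifferentiated cells alone.

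The sort was checked with Bcl11b, which had a log2 signal of 8.76, 7.91 and 8.54 in GFP+ cells and 6.44, 6.27 and 6.88 in GFP- cells on day 11, day 12 and day 13. The difference of 1.87 passed the test used throughout (standard error 0.19, adjusted p = 0.0248). That test was a limma fit of fraction and day, its p-values adjusted by Benjamini-Hochberg over the 19938 genes, with a threshold of 0.05. Bcl11b missed it without day 13 (1.98, adjusted p = 0.0559 from limma) and after a further quantile normalization, which gives all arrays 1 distribution (1.57, adjusted p = 0.0771 from limma). It also missed the threshold by the methods' t-test (adjusted p = 0.296). One array, that of GFP- cells on day 13, was unlike the others. Its Pearson correlation with the other arrays was 0.863 to 0.927 across probe sets, and its signals were compressed towards the middle. The 20th percentile of its genes was at 4.96 and the 95th percentile at 7.63, whereas these lay at 4.61 to 4.79 and at 8.13 to 8.56 on the other 5 arrays. Of all genes, 43.0% were higher on it than on both other GFP- arrays. Among the 9969 dim genes, those whose mean on the day 11 and day 12 GFP- arrays lay below the median of 5.56, it was 71.5%. All 10 pluripotency genes belong to these dim genes, so the main counts on the day 13 GFP- array are given beside the same count over them.

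In general the pluripotency genes were dim. On the 5 arrays other than day 13 GFP-, their signals ran from 4.36 to 5.66, while the median of all genes was 5.48 to 5.56. The median percentile of the 10 genes within an array was 25.1, 25.0 and 28.4 in GFP+ cells and 29.8 and 27.0 in GFP- cells of day 11 and day 12. On the day 13 GFP- array it was 48.7. At most 1 of the 10 genes lay above the array median on each of the 5 arrays, and 5 did on the day 13 GFP- array. A low signal on an array does not show whether a transcript is present. The name of the group therefore describes what these genes are known for and not a measured level. Probes differ in brightness, so the levels of different genes are not compared with each other.

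**Figure D1:**
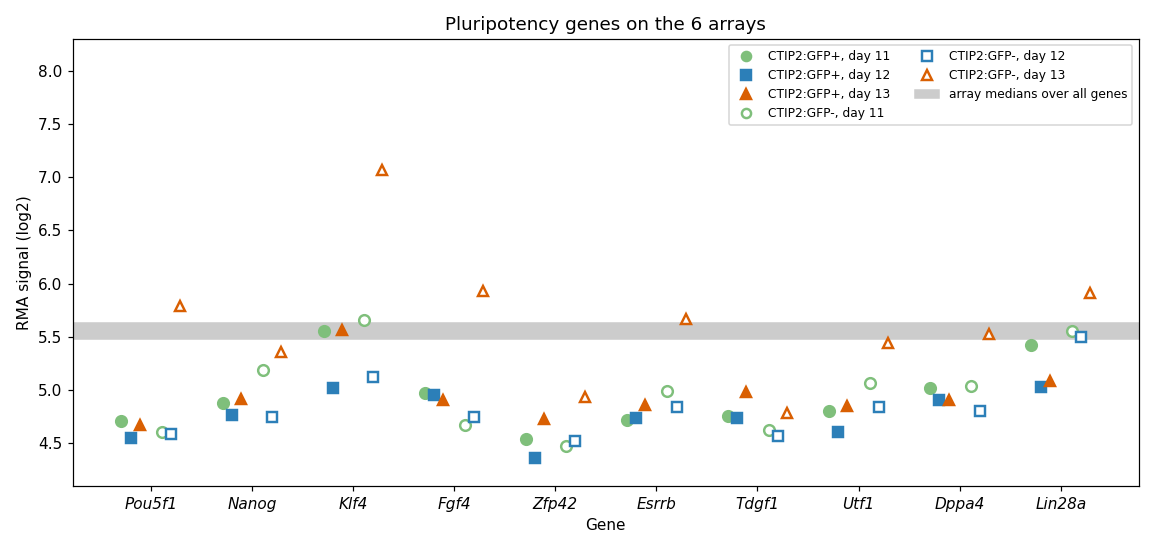
RMA signal (y axis, log2) of the 10 pluripotency genes (x axis) on each array. Filled symbols are CTIP2:GFP+ and open symbols CTIP2:GFP- arrays, 1 symbol per array, circles for day 11, squares for day 12 and triangles for day 13, and the grey band spans the medians of all genes on the 6 arrays. The open triangle is the highest symbol for 9 of the 10 genes and reaches 7.07 for Klf4.

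Pou5f1, Klf4 and Fgf4 were the genes that stood out, and they did so on a single array. Pou5f1, which encodes OCT4, had a log2 signal of 4.71, 4.55 and 4.67 in GFP+ cells and 4.61, 4.59 and 5.79 in GFP- cells on day 11, day 12 and day 13. Of these 6 values, 5 lay close together and that of day 13 GFP- was above all of them. Klf4, a zinc finger factor of the network that differentiated epithelia also use, was at 5.55, 5.02 and 5.56 in GFP+ cells and at 5.66, 5.12 and 7.07 in GFP- cells. Both fractions were lower on day 12 than on day 11, and the day 13 GFP- array was again the highest, at the 89.7th percentile of its genes. Fgf4, the growth factor, was at 4.97, 4.96 and 4.91 in GFP+ cells and at 4.67, 4.75 and 5.93 in GFP- cells. In the first 2 days the GFP+ arrays lay above the GFP- arrays for this gene, and on day 13 the order was turned. The day 13 GFP- array exceeded the mean of the other GFP- arrays by 1.20 for Pou5f1, 1.68 for Klf4 and 1.22 for Fgf4, or 2.29-fold, 3.20-fold and 2.33-fold. These 3 of the 10 genes were over 2-fold higher there, against 1.59% of all genes and 1.86% of the dim genes, with 1 array and hence no test. In the other direction 0 of the 10 were over 2-fold lower, against 8.2% of all genes but 0.0% of the dim genes, so this count says nothing about the 10. Against the day 11 or the day 12 GFP- array alone, 3 genes were again over 2-fold higher, as were 1.18% and 3.01% of all genes. After the quantile normalization 3 genes were over 2-fold higher too. With that normalization the differences were 1.17, 2.17 and 1.28 for Pou5f1, Klf4 and Fgf4, and the share of all genes was 4.52%.

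A probe set can also read RNA of near-identical copies, of which Pou5f1 has several in the mouse genome. The array holds a separate probe set for 1 of them, Pou5f1-rs4, which was at 4.93, 4.87 and 4.95 in GFP+ cells and at 4.70, 4.76 and 6.20 in GFP- cells. It showed the same single high array. Whether the signal of either probe set comes from Pou5f1 itself or from a copy cannot be told apart here.

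The sequences before the start sites of the genes over 2-fold higher are shown because their promoters are where network factors and general factors meet, together with that of Zfp42, which stayed dim. RefSeq promoter sequences of GRCm38.p6 were at hand for 9 of the 10 genes, in 12 entries, but not for Dppa4. Each line gives the 250 bases before the first listed start site, 5′ to 3′ along the gene. Capitals mark matches on either strand to the octamer of POU factors (ATGCAAAT), the GC box (GGGCGG), the CACCC element of KLF and SP factors (CCACCC), the nuclear receptor half-site (AGGTCA) or the TATA box (TATAAA), and adjoining matches may overlap.
Pou5f1 (chr17:35505782-35506031, + strand): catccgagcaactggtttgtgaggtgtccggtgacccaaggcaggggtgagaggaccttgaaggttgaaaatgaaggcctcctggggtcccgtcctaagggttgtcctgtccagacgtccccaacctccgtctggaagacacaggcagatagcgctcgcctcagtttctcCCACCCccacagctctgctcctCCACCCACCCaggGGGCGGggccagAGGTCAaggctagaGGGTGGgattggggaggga
Klf4 (chr4:55532476-55532725, - strand): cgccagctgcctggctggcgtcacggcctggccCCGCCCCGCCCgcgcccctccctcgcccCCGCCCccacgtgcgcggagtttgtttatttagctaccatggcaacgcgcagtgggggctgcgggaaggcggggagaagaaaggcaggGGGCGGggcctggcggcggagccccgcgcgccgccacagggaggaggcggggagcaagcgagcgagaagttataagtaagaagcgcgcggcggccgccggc
Fgf4 (chr7:144861136-144861385, + strand): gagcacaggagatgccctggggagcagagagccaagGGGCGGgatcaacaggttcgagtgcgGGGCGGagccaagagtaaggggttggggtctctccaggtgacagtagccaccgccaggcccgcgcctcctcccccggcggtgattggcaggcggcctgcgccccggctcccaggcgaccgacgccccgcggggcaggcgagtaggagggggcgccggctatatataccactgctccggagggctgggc
Zfp42 (chr8:43307010-43307259, - strand): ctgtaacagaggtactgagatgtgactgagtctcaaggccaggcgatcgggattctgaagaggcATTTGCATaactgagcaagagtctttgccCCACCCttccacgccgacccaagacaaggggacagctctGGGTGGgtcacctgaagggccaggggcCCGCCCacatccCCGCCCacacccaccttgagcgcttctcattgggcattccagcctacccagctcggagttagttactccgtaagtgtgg
The Pou5f1 promoter held 4 CACCC elements, 1 GC box and 1 nuclear receptor half-site, all within 80 bases of the start, and 2 of the CACCC elements overlapped. Klf4 had 4 GC boxes, 2 of them overlapping, and Fgf4 had 2. The octamer was found in 1 of the 12 entries, that of Zfp42, 186 bases before its start. In the same window the octamer occurred in 1.6% of 32851 RefSeq promoters, the GC box in 32.7%, the CACCC element in 28.1%, the half-site in 14.0% and the TATA box in 12.4%. A match describes letters only. The 3 genes shared the GC box, which Zfp42, Tdgf1 and Utf1 also held and Nanog, Esrrb and Lin28a did not.

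Among the other factors of the network, Esrrb, an orphan nuclear receptor, came next. Its signal was 4.72, 4.74 and 4.86 in GFP+ cells and 4.99, 4.85 and 5.67 in GFP- cells, and the day 13 GFP- array exceeded the other GFP- arrays by 0.75. It was lower in GFP+ cells on all 3 days, but the difference of day 11 and day 12 (-0.27 and -0.11) was smaller than that of day 13 (-0.81). Nanog, the homeobox factor, was at 4.88, 4.76 and 4.91 in GFP+ cells and at 5.19, 4.75 and 5.36 in GFP- cells. Here the day 11 GFP- array was nearly as high as that of day 13, and the excess of day 13 was 0.17 over day 11 and 0.61 over day 12. Zfp42, which encodes the zinc finger protein REX1 and marks naive ESCs, was at 4.54, 4.36 and 4.73 in GFP+ cells and at 4.48, 4.52 and 4.94 in GFP- cells. It lay at or below the 20.9th percentile of genes on every array, the day 13 GFP- array (19.1) included.

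Utf1 and Dppa4 act at chromatin and DNA, and their day 13 GFP- arrays exceeded the other GFP- arrays by 0.49 and 0.61. Utf1, a chromatin-associated factor of ESCs, was at 4.80, 4.61 and 4.85 in GFP+ cells and at 5.07, 4.84 and 5.44 in GFP- cells. It was lower in GFP+ cells on each day, by 0.27, 0.23 and 0.59 on the log2 scale, although the day 13 GFP+ array lay above the day 12 GFP- array. Dppa4, which encodes a DNA-binding protein with a SAP domain, had 2 probe sets that differed. The brighter one, used by the rule, was at 5.02, 4.91 and 4.90 in GFP+ cells and at 5.04, 4.80 and 5.53 in GFP- cells, and the other at 4.40, 4.31 and 4.24 in GFP+ cells and at 4.33, 4.34 and 4.64 in GFP- cells. On the day 13 GFP- array both were at their highest.

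Tdgf1 was the exception among the 10 genes, and Lin28a was the gene whose fractions did not overlap. Tdgf1 encodes Cripto, the cell surface co-receptor of Nodal, and was at 4.76, 4.74 and 4.98 in GFP+ cells and at 4.63, 4.57 and 4.79 in GFP- cells. It was the 1 gene of the 10 that was higher in GFP+ cells on all 3 days, by 0.13, 0.17 and 0.19, and the 1 gene whose highest array was day 13 GFP+. Lin28a encodes the RNA-binding protein that blocks the maturation of let-7 microRNAs, and was at 5.42, 5.03 and 5.09 in GFP+ cells and at 5.55, 5.50 and 5.91 in GFP- cells. Every GFP- array lay above every GFP+ array for this gene alone among the 10, as for 7.85% of all genes, and 0 of the 10 had the opposite order, as for 9.05%. Its difference was -0.13, -0.47 and -0.83 on day 11, day 12 and day 13.

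The comparison of the fractions asked whether sorting for CTIP2:GFP left pluripotency RNA in 1 of them. No pluripotency gene passed the test. Over the 3 days, 9 of the 10 genes were on average lower in GFP+ cells and 1 was higher, with a median difference of -0.30 against -0.053 over all genes. Past the limma test, 0.797% of all genes were higher and 0.567% were lower in GFP+ cells, and 0 of the 10 were called. The largest mean differences were -0.57 for Klf4 (standard error 0.31, adjusted p = 0.465) and -0.47 for Lin28a (standard error 0.18, adjusted p = 0.284). Klf4 averaged 5.38 ± 0.31 in GFP+ cells and 5.95 ± 1.01 in GFP- cells (SD, n = 3 each). Lin28a averaged 5.18 ± 0.21 in GFP+ cells and 5.65 ± 0.23 in GFP- cells (SD, n = 3 each). Lin28a alone among these genes had an unadjusted limma p below 0.05, a level met by 15.5% of all genes, and by 5.96% in its direction. In each of 12 alternatives, among them the fit with no replicate block for the day and the fits that each leave out 1 day, 0 of the 10 genes passed the test.

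By day, 6, 6 and 9 of the 10 genes were lower in GFP+ cells on day 11, day 12 and day 13. The median difference of the 10 genes was -0.060, -0.067 and -0.71 on those days, against -0.0096, -0.0050 and -0.071 over all genes and -0.058, 0.019 and -0.24 over the dim genes. On day 11 and day 12, 0 of the 10 genes were over 2-fold lower in GFP+ cells, against 1.3% and 2.43% of all genes, and 0 were over 2-fold higher, against 1.85% and 1.48%. On day 13, 3 were over 2-fold lower, namely Klf4 (-1.50), Pou5f1 (-1.13) and Fgf4 (-1.03), against 2.29% of all genes and 1.76% of the dim genes. On that day 0 were over 2-fold higher, against 9.18% of all genes and 0.271% of the dim genes. Without day 13 the signs of the mean differences of Pou5f1 (0.032), Fgf4 (0.25) and Dppa4 (0.045) turned. In bulk samples, fewer cells of a type and less RNA per cell cannot be told apart.

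**Figure D2:**
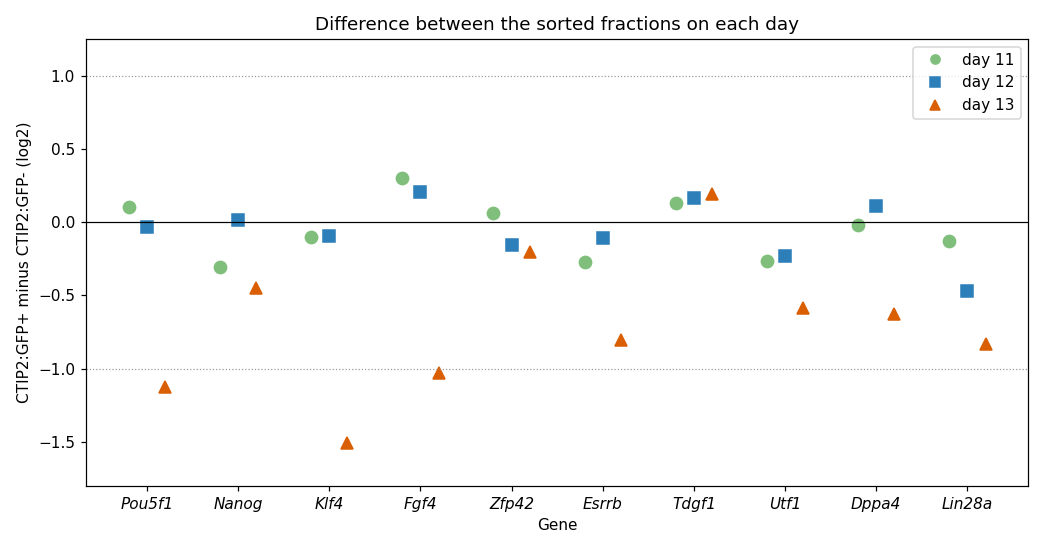
Difference between the fractions (y axis, CTIP2:GFP+ minus CTIP2:GFP-, log2) for the 10 pluripotency genes (x axis). Circles, squares and triangles are day 11, day 12 and day 13, each the difference of 2 arrays, and dotted lines mark 2-fold. The triangles of Klf4 (-1.50), Pou5f1 (-1.13) and Fgf4 (-1.03) lie under the lower dotted line and no symbol of day 11 or day 12 does.

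Whether the difference of day 13 departed from that of the other days was tested with an interaction term for day 13. It was estimated at -1.41 for Klf4 (standard error 0.20), -1.28 for Fgf4 (standard error 0.21) and -1.16 for Pou5f1 (standard error 0.21), each with adjusted p = 0.175 from limma. In this fit, which leaves 1 residual degree of freedom, 0 of 19938 genes passed in either direction, while 4456 (22.3%) had an unadjusted p under 0.05. Of the 10 pluripotency genes, 5 were below that unadjusted level and all were negative, against 8.72% of all genes in that direction. With a trended and robust variance prior, 6.91% of all genes were lower and 1.84% were higher past the test, and the same 5 pluripotency genes were called lower. These were Pou5f1 (adjusted p = 0.000538), Fgf4 (0.000686), Klf4 (0.00458), Dppa4 (0.0398) and Esrrb (0.0489), all from limma. The matching shares of the dim genes are not given here. On day 13 the median difference was -0.24 over the dim genes and -0.071 over all genes. The shares of all genes may therefore understate the background for these 10 dim genes. The calls thus depended on the prior, and day 13 was singled out with its values known.

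All 10 genes were higher on the day 13 GFP- array than on both other GFP- arrays, as were 71.5% of the dim genes. For 9 of the 10 the array was the highest of all 6, as it was for 37.9% of all genes and for 64.7% of the dim genes. The excess over the mean of the other GFP- arrays ran from 0.19 for Tdgf1 to 1.68 for Klf4, with a median of 0.55. The median was 0.034 over all genes and 0.25 over the dim genes. The day 13 GFP+ array, by contrast, exceeded the other GFP+ arrays by a median of 0.11 over the 10 genes, and 0 of them were over 2-fold higher or lower, against 0.0552% and 0.0853% of all genes. The quantile normalization left the median of the 10 genes at 0.46 and Nanog, Zfp42 and Tdgf1 at 0.16, 0.19 and -0.056.

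**Figure D3:**
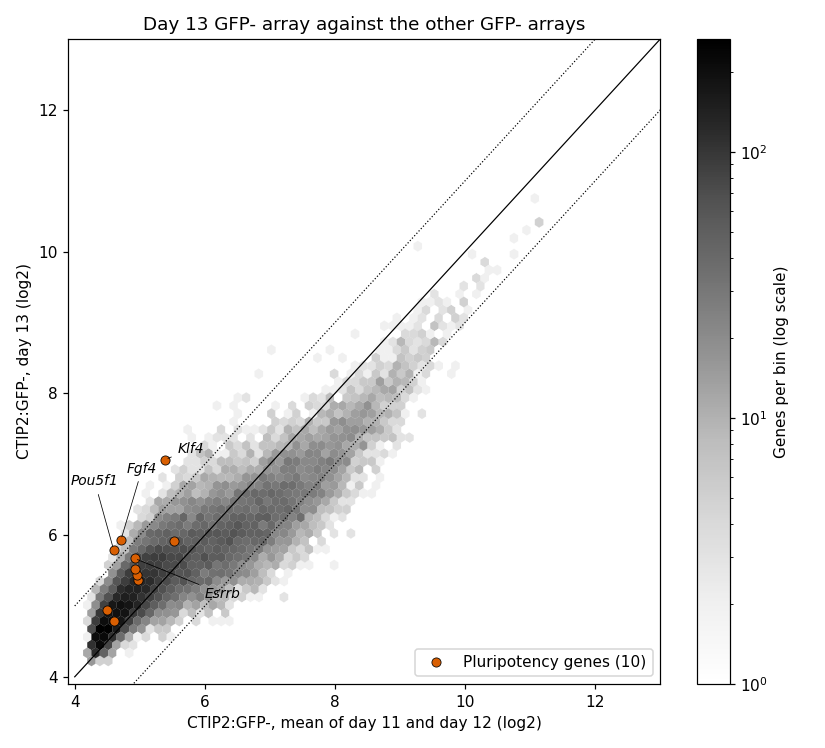
Log2 signal of the day 13 CTIP2:GFP- array (y axis) against the mean of the day 11 and day 12 CTIP2:GFP- arrays (x axis). Grey hexagons count genes on a log scale, the solid line marks equal signals, dotted lines mark 2-fold and orange points are the 10 pluripotency genes. Most dim genes lie above the solid line and most bright genes below it, and Klf4, Pou5f1 and Fgf4 lie above the upper dotted line.

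Other genes of the pluripotency network, 24 measured of 25 listed, behaved in several ways. In the comparison of the fractions 0 were higher and 0 were lower past the test. On the day 13 GFP- array 3 of them were over 2-fold higher and 1 was over 2-fold lower than on the other GFP- arrays. The shares of all genes were 1.59% and 8.2%, and the median of the 24 genes was 0.18. L1td1, an RNA-binding protein of ESCs, was at 6.01 on the day 13 GFP- array, against 4.95 and 4.81 on those of day 11 and day 12. Nr5a2, a nuclear receptor that acts on the Pou5f1 promoter, was at 5.98, against 4.92 and 4.87. The third, Prdm14, a factor of naive ESCs and germ cells, was just past 2-fold and was named after its values were seen. Dppa2, Tcl1, Dppa5a and Nr0b1, which also mark ESCs, differed there from the other GFP- arrays by 0.084, 0.15, 0.10 and -0.29. Short of 2-fold, Klf2 and Fbxo15 differed by 0.997 and 0.91, and Trim28 by -0.89. These 7 genes too were named after their values were seen. For 14 of the 24 genes the day 13 GFP- array was the highest of all 6, against 37.9% of all genes and 64.7% of the dim genes. Jarid2, a partner of the Polycomb repressor complex, was at 8.32, against 9.30 and 9.64. Sox2, the partner of OCT4 that neural progenitors keep, was bright, at 8.49, 7.73 and 8.48 in GFP+ cells and at 8.48, 8.94 and 8.90 in GFP- cells.

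Genes that act with Tdgf1, Fgf4 and Lin28a were measured too. Of 12 Nodal pathway genes, 0 were called in either direction. Nodal itself (4.86 to 5.48 over the 6 arrays), Lefty1 (4.66 to 5.33) and Lefty2 (4.44 to 4.87), whose products act through or against Cripto, lay below the array median on every array. On the day 13 GFP- array 3 of the 12 were over 2-fold lower than on the other GFP- arrays, against 8.2% of all genes and 0.0% of the dim genes. These were the receptor genes Acvr1b (-1.41) and Tgfbr1 (-1.14) and the signal transducer Smad3 (-1.14). Of the 12, 7 lay above the array median on every array, these 3 included, so the dim genes are no background for the 3. Every gene over 2-fold lower lay outside the dim genes, so the share among genes that were not dim is above 8.2%. Among 13 FGF receptors and feedback genes, 0 were higher and 2 were lower in GFP+ cells past the test. These were Fgfr3 (-1.64, standard error 0.21, adjusted p = 0.0372 from limma) and Fgfr1 (-1.11, standard error 0.16, adjusted p = 0.0454), receptors that neural progenitors carry. In the LIN28 and let-7 group 0 of 10 genes were called. Lin28b, the paralogue of Lin28a, was at 5.41, 5.78 and 5.10 in GFP+ cells and at 5.40, 5.44 and 5.64 in GFP- cells, with no order between the fractions. Of 9 genes of the LIF and STAT3 pathway, which sustains ESCs in culture, and of 11 epiblast genes, 0 and 1 were called. The 1 was Sfrp2 (-2.46, standard error 0.24, adjusted p = 0.0248 from limma), which neural progenitors also express.

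The other cell types that such a culture could hold were measured beside these genes. Of 12 germ cell, 13 primitive and visceral endoderm, 9 mesoderm, 8 trophoblast, 9 epithelial junction and 11 fibroblast genes, 0 were called in the comparison of the fractions. Their medians on the day 13 GFP- array, again as its excess over the other GFP- arrays, were 0.18, 0.56, 0.41, 0.18, 0.46 and 0.43. The median of the 10 pluripotency genes, 0.55, was thus close to that of the endoderm list. Over 2-fold higher there were 1, 1, 1, 0, 0 and 0 genes of these lists, against 3 of the 10 pluripotency genes and 1.59% of all genes. Those 3 genes were Tfap2c, Amn and Hand1, which mark germ cells and trophoblast, visceral endoderm, and mesoderm and trophoblast. Over 2-fold lower was 1 gene of these lists, Kit of the germ cell list (-1.11), against 8.2% of all genes. The neuronal list had a median of -1.14 there, against -0.46 over the genes that were not dim. Of its 10 genes, 6 were over 2-fold lower, against 8.2% of all genes and 0.0% of the dim genes. All 10 lay above the array median on every array, so the dim genes are no background for them. The share among genes that were not dim is above 8.2%, because every gene over 2-fold lower belonged to these. Dcx, which marks migrating neurons, was at 7.59 on the day 13 GFP- array, against 9.31 and 9.18 on those of day 11 and day 12, and the tubulin gene Tubb3 was at 5.97, against 7.06 and 7.64. In the comparison of the fractions 3 neuronal genes were higher in GFP+ cells and 5 of 10 radial glial genes were lower, with Syt1 at 2.34 and Slc1a3 at -2.72. The radial glial list had a median excess of -0.17 on the day 13 GFP- array. Of its 10 genes, 1 was over 2-fold higher there, Sox1 (1.20), and 2 were over 2-fold lower, Pax6 (-1.18) and Msi1 (-1.07). The shares of all genes were 1.59% and 8.2%, and Pax6 and Msi1 were not dim. Sox1 was at 9.08, 6.84 and 8.73 in GFP+ cells and at 7.95, 7.57 and 8.96 in GFP- cells. Its highest array was thus day 11 GFP+. Its mean log2 level in GFP- cells was 8.88 (day 11), 9.30 (day 12) and 8.87 (day 13), which averages over these opposite shifts. The part of the neuronal shift, of the array's narrow range and of any other cell type in the values of the 10 genes was not tested.

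**Figure D4:**
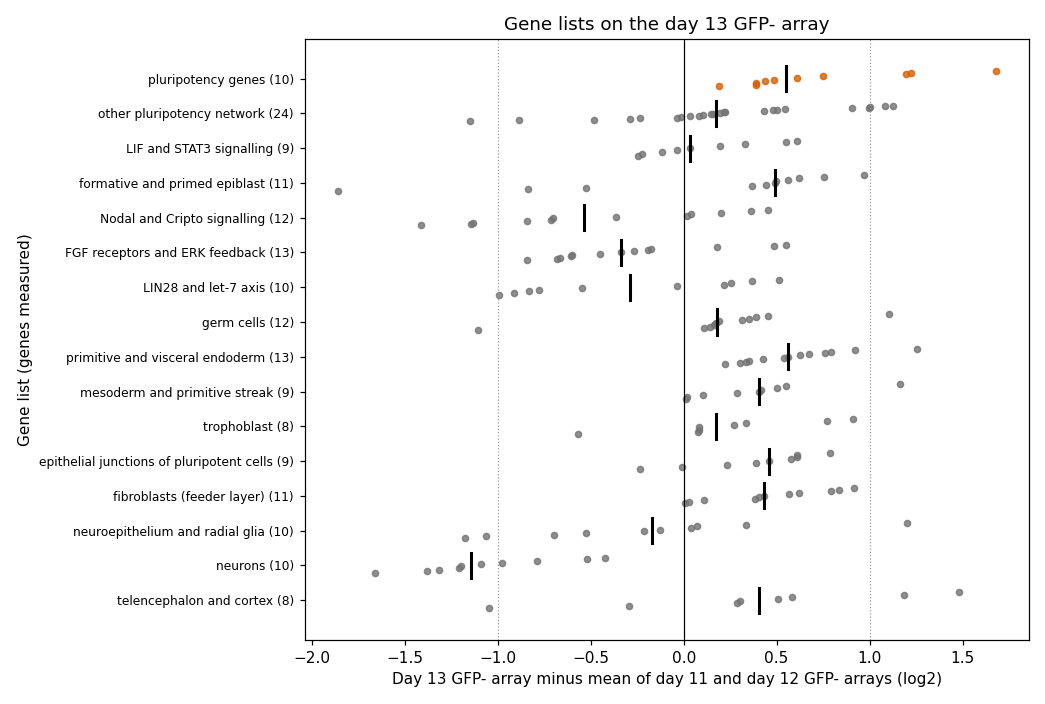
Excess of the day 13 CTIP2:GFP- array over the mean of the day 11 and day 12 CTIP2:GFP- arrays (x axis, log2). The y axis names the 16 gene lists and how many genes each had. Each point is a gene, orange for the 10 pluripotency genes, black bars are medians and dotted lines mark 2-fold. The pluripotency genes lie between 0.19 and 1.68, the endoderm list has a similar median (0.56 against 0.55) and the neuronal list has its median at -1.14.

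The genes among themselves varied with that array. Over the 6 arrays the signal of Pou5f1 correlated with that of Klf4, Fgf4 and Dppa4 at Pearson r = 0.961, 0.969 and 0.953, and with that of Tdgf1 at 0.209. These values describe 6 points that share arrays and rest on the day 13 GFP- array. The genes whose profile over the 6 arrays was most like the mean of the 10 were F2, Epop, Fxyd2, Tnfsf18 and Rasd1 (r = 0.996 to 0.999). They were drawn from 5442 genes with a range of at least 1, of which 375 had an r over 0.95.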

How the data were processed

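Total RNA of cells sorted from cultures of a CTIP2:GFP knock-in mouse ESC line was run on 6 arrays of the Mouse Gene 1.0 ST type, 3 per fraction. The deposited values are log2 signals that the authors calculated per probe set with RMA16 in the GeneSpring software. Joint normalization of the arrays is not stated in the sources read, nor is a filter or a software version, and the array medians differed (5.32 to 5.52 over 28853 probe sets). Names came from the platform annotation: 21789 probe sets had 1 symbol, 1621 had several and 5443 had none, and 21698 of the first matched GRCm38.p6 by Entrez ID, with 0 symbols changed. Each of 19938 genes was represented by its probe set with the highest mean, and no dim probe set was removed.

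The fractions were compared in R 4.3.3 by a linear model of fraction plus day (limma 3.58.1, 2 residual degrees of freedom), eBayes and Benjamini-Hochberg adjustment over all genes. Day pairs the fractions by label, and the correlation between GFP+ and GFP- deviations was, by day, 0.112, 0.558 and 0.368, although GFP+ of day 11 correlated more with GFP- of day 13 (0.297). The fit with no replicate block, each day left out, other scalings, filters on dim genes and other tests were alternatives. Scripts were tested on simulated data. The 10 genes and all lists were chosen with earlier results of these data known. Named genes are the 10, Bcl11b, and per list those past the test (at most 4) or with the largest day 13 GFP- excess past 2-fold (2 each way). Where another listed gene is named, it was chosen after its values were seen. Precision is limited by having 6 arrays. Some listed genes were not analysed here.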

Additional observations from a re-analysis of the deposited data

Results flagged for a closer look

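Fgf4 differed between days in direction. It was higher in GFP+ cells on day 11 and day 12, by 0.30 and 0.21 on the log2 scale, and lower on day 13 (-1.03). The difference of day 13 minus the mean of the other days was -1.28 (standard error 0.21, adjusted p = 0.175 from limma), so it did not pass the test, and it passed with a trended and robust variance prior (adjusted p = 0.000686 from limma). The call thus depended on the prior. Each day has 1 array per fraction, and day 13 was singled out with its values known.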

How the results depend on the processing

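For all genes, the counts past the limma test moved with the setting, while 0 of the 10 pluripotency genes passed in the comparison of the fractions in any of the 12 alternatives. The main counts were 159 genes higher and 113 lower in GFP+ cells. With no replicate block for the day they were 84 and 41, after median centring 73 and 42, and after a further quantile normalization 45 higher, with 89 lower. With genes at or above the 20th percentile of gene means they were 422 and 239, a filter that kept 8 of the 10 genes, and with those at or above the median 787 and 359, which kept 1 of the 10, Klf4. A trended and robust prior gave 549 and 510. By the methods' t-test 0 and 0 passed after adjustment, with 1756 at its unadjusted threshold. Leaving out 1 day gave 0 to 930 higher and 0 to 229 lower, with 0 and 0 without day 13.

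Leaving out 1 day moved the mean difference of Pou5f1 over -0.58 to 0.032, of Fgf4 over -0.41 to 0.25 and of Dppa4 over -0.32 to 0.045, and the positive ends are those without day 13. When the day 13 GFP- array was dropped with no replicate block, they were 0.045, 0.24 and 0.025, and that of Zfp42 was 0.046. In the test of day 13 against the other days, the trended and robust prior gave 366 genes higher, 1377 lower and 5 of the 10, against 0, 0 and 0. The 4 other alternatives gave 0 each. Zfp42 turned to 0.064 after quantile normalization. The day 13 GFP+ array set against the other GFP+ arrays gave a median of 0.11, 0 genes over 2-fold higher and -0.059 for Fgf4. The cause of these changes was not tested. Dim signals limit what can be read.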

Other observations

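The profile of Pou5f1 alone over the 6 arrays was most like that of Shh, which encodes the secreted ventral signal Sonic hedgehog (r = 0.999), and of Bmp8a, a BMP ligand (r = 0.998). Shh was at 6.02, 5.76 and 5.92 in GFP+ cells and at 5.89, 5.78 and 7.56 in GFP- cells on day 11, day 12 and day 13. Bmp8a was at 5.42, 5.18 and 5.30 in GFP+ cells and at 5.26, 5.20 and 6.51 in GFP- cells, again with 1 high array. Among 5442 genes with a range of at least 1, 233 had an r over 0.95 with Pou5f1, so likeness of profile here describes a single high array.

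Of the 8 cortical genes measured, 2 were over 2-fold higher on the day 13 GFP- array than on the other GFP- arrays, against 1.59% of all genes. These were Emx1 (by 1.48 on the log2 scale) and Emx2 (1.19), homeobox genes of the dorsal telencephalon. Over 2-fold lower was 1, Neurog2 (-1.05), which drives neurogenesis, against 8.2% of all genes. Sox1, a factor of the neural plate, was 1.20 higher there, and Pax6, of radial glia, was at -1.18. The highest array of Sox1 was day 11 GFP+, at 9.08 against 8.96 on day 13 GFP-. These values go with no test.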
